A study of Mus musculus with 6 samples.

Results

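The genes described here encode 10 enzymes that make, lengthen and desaturate fatty acids: Acly and Acss2, which supply cytosolic acetyl-CoA; Acaca and Fasn, which build the saturated chain; Elovl5 and Elovl6, which lengthen it; and Scd1, Scd2, Fads1 and Fads2, which place double bonds in it. They were chosen by symbol, each matched 1 identifier among the 32285 genes of the count table, and all 10 passed the filter on low counts that left 14912 genes for testing. RNA was measured in DBA-GFP GS cells, a GFP-marked wild-type mouse line of germline stem cells, the cultured form of spermatogonial stem cells. The control group was grown in complete medium and the other group in medium named for 8 mM pyruvate, with 3 libraries each. All libraries came from this 1 line, and the sources used here give neither the composition of the media nor the time in culture.

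Citrate that leaves the mitochondrion is split by ATP-citrate lyase to acetyl-CoA, and acetate is turned into the same product by an acetyl-CoA synthetase. Acetyl-CoA carboxylase makes malonyl-CoA from it, and fatty acid synthase joins these units, with NADPH as reductant, mostly into palmitate. Elongases add pairs of carbons in the endoplasmic reticulum, stearoyl-CoA desaturases make monounsaturated chains, and the delta-5 and delta-6 desaturases make polyunsaturated ones. Transcription of the pathway is driven by SREBP factors, which also drive sterol synthesis, and in many tissues by ChREBP, which responds to sugar metabolites, and by the LXR receptors.

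In pyruvate medium the mean levels of Fads2, Scd2, Scd1, Acly and Fasn were higher, by 0.17 to 0.38 on the log2 scale, and those of both elongases were lower, but 0 of the 10 genes passed the test across all genes. The groups did not overlap for Fads2, Scd2, Acly and Fasn, all higher in pyruvate medium. This was the case for 4 of 10 genes, against 11.9% of all tested genes in that direction, and without control replicate 2 for 6 of 10, against 20.9%. The median log2 fold change of the 10 genes was 0.12, against -0.010 over all tested genes, and 7 of 10 lay above 0, against 48.1%. By edgeR's quasi-likelihood test, adjusted over all tested genes, 8 genes were called (0.0536%), none of them among the 10; 4 of the 10 had an unadjusted p under 0.05 in edgeR and 2 in DESeq2, which also called 0 of them (2.17% of all genes it tested). The 4 were Fads2, Scd2, Acly and Scd1, against 14.4% of all tested genes with such a p in either direction. Levels are given as CPM, counts scaled to the same total in every library with a correction for composition (TMM). Sums over marker lists are CPM without that correction. Fold changes are pyruvate over control on the log2 scale throughout. A gene is said to have risen or fallen in a fit only where its adjusted p in that fit was under 0.05.

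**Figure D1:**
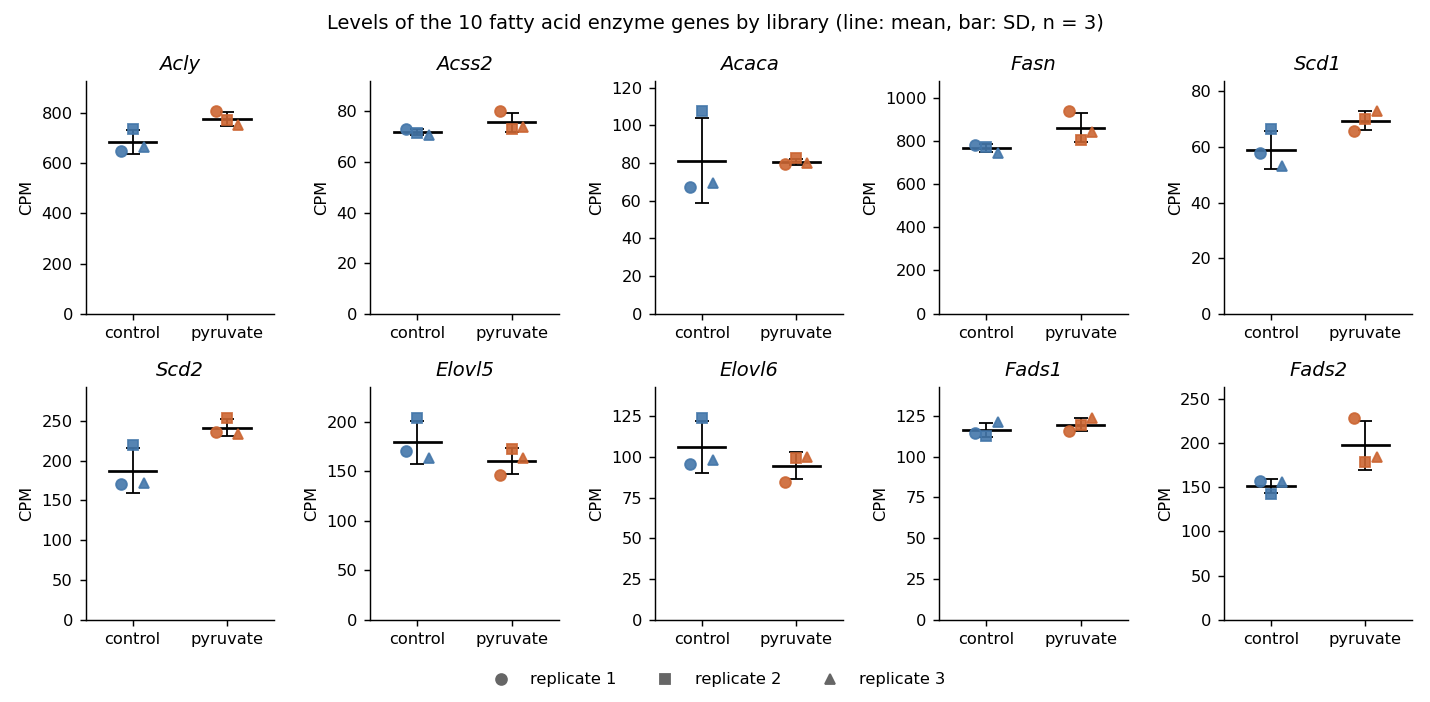
Levels of the 10 genes in every library, in CPM on axes that start at 0, for control (blue) and pyruvate medium (orange). Fads2, Scd2, Acly and Fasn lie higher in all 3 pyruvate libraries than in any control, and the square of control replicate 2 stands above the other controls for Acaca, Elovl5, Elovl6, Scd1, Scd2 and Acly.

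Library totals ran from 20918312 to 26413080 counts. Control replicate 2 stood apart, at 36.5 on a first principal component that held 38.9% of the variance, and pyruvate replicate 1 at the other end, at -27.2, where the other 4 libraries lay between -4.64 and 0.81. On the second component, with 28.4% of the variance, control replicate 2 lay at 7.33, nearer to the pyruvate libraries (9.84 to 15.1). Control replicates 1 and 3 lay at -23.4 and -21.4 there. Counts of pyruvate replicate 1 differed from those of pyruvate replicates 2 and 3 by a chi-square per gene of 16.04 and 12.7, against 4.32 between those. For control replicate 2 against control replicates 1 and 3 it was 46.8 and 37.1, against 3.07 between those. Fits without control replicate 2 thus rest on the control pair with the smallest difference. Germline markers were present, with 16 of 16 tested and a summed level of 4684 to 5261 CPM in control and 4604 to 4993 CPM in pyruvate libraries. Of the 16, 7 had a log2 fold change above 0 (median -0.0085), and 0 passed. Without overlap, 1 stood higher and 3 lower, against 11.9% and 10.6% of all tested genes. Markers of other cells were low. Fibroblast and mesenchymal markers, with 8 of 12 tested, summed to 79.9 to 94.9 CPM in control and 88.4 to 121 CPM in pyruvate libraries. Most of that was Col1a1, which stood at 51.4 ± 2.55 and 66.2 ± 13.7 CPM without overlap (adjusted p = 0.294, edgeR). Of these markers 1 of 8, Col1a1, had a log2 fold change above 0, and the median was -0.21. Without control replicate 2 it was 5 of 8, with a median of 0.052. With all libraries, 1 stood higher and 1 lower without overlap, against 11.9% and 10.6% of all tested genes. Sertoli cell markers (4 of 8 tested) summed to 26.0 to 28.7 and 24.5 to 30.4 CPM. Leydig cell markers (1 of 7 tested) summed to 2.82 to 3.86 and 2.66 to 2.89 CPM, with Hsd3b1, Hsd3b6, Insl3 and Lhcgr at 0. Macrophage and immune markers (3 of 8 tested) summed to 9.65 to 11.5 and 11.1 to 13.8 CPM, with Adgre1 at 0. Markers of adipocytes, which hold much of this pathway in the body, were 2 of 8 tested and summed to 2.01 to 3.82 and 3.34 to 4.38 CPM, with Lep at 0. Of the 2, Pparg stood at 0.43 ± 0.091 and 1.08 ± 0.30 CPM without overlap (adjusted p = 0.162, edgeR). Retn, the more abundant, went the other way, at 2.04 ± 0.75 and 1.89 ± 0.11 CPM with overlap (log2 -0.094, adjusted p = 0.901, edgeR). The part of other cells in the results was not tested, and in such bulk RNA fewer cells of a type and less RNA per cell cannot be told apart.

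Acly (ENSMUSG00000020917, chromosome 11, 100476353 to 100528000, minus strand, GRCm38) encodes ATP-citrate lyase. The level of Acly was 649.5, 738 and 664 CPM in control replicates 1, 2 and 3, and 807, 771 and 753 CPM in pyruvate replicates 1, 2 and 3. Every pyruvate library lay above every control, and control replicate 2 came closest. The means were 684 ± 47.5 and 777 ± 27.4 CPM (SD, n = 3 per group), a log2 fold change of 0.18 (SE 0.077) that did not pass (adjusted p = 0.327, edgeR). Without control replicate 2, Acly rose by 0.24 (adjusted p = 0.0449, edgeR), where 2.33% of all tested genes passed as higher and 52.4% lay above 0.

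Acss2 (ENSMUSG00000027605, chromosome 2, 155517948 to 155585724, plus strand) encodes the acetyl-CoA synthetase of cytosol and nucleus, which uses acetate. It stood at 73.1, 71.4 and 70.8 CPM in the controls and at 80.01, 72.97 and 73.9 CPM in pyruvate replicates 1, 2 and 3. The groups overlapped and differed by 0.076 (SE 0.077, adjusted p = 0.691, edgeR), and by 0.039 without pyruvate replicate 1, the highest library. Exons of Gss, Ggt7 and Acss2os on the opposite strand cover 927 bases of its exons, so that its count is uncertain to that extent. The ratio of Acss2 to Acly counts within a library, which no scaling affects, was 0.112, 0.0967 and 0.107 in control and 0.0992, 0.0946 and 0.0981 in pyruvate replicates. The ranges overlapped, with a difference of -0.11 in mean log2 ratio (two-sided exact permutation p = 0.3).

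Acaca (ENSMUSG00000020532, chromosome 11, 84129672 to 84401651, plus strand) encodes acetyl-CoA carboxylase 1, which commits acetyl-CoA to fatty acids. It stood at 67.1, 107 and 69.2 CPM in control replicates 1, 2 and 3, and at 79.5, 82.4 and 79.9 CPM in the pyruvate replicates. The pyruvate libraries lay close together, between control replicate 2 above them and the other controls below. The log2 fold change was -0.012 (SE 0.17, adjusted p = 0.981, edgeR) with all libraries and 0.24 (adjusted p = 0.0682) without control replicate 2. With control replicate 2 kept, it also lay above 0 without pyruvate replicate 1 (0.0040), in limma-voom (0.017), with the replicate block (0.020), and with counts scaled by library totals (0.024) or by the upper quartile (0.0097). Of all stretches of 50 bases in Acaca transcripts, 30.4% also occur in transcripts of other genes, foremost the model Gm5182, so its count may lack reads that map to both. Acacb, which makes the carboxylase form at mitochondria that restrains fatty acid oxidation, stood at 43.3 ± 2.27 and 46.5 ± 7.26 CPM (log2 0.10, adjusted p = 0.732, edgeR).

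Fasn (ENSMUSG00000025153, chromosome 11, 120805846 to 120824547, minus strand) encodes fatty acid synthase. It stood at 783, 772 and 745 CPM in control and at 937, 806 and 843 CPM in pyruvate replicates 1, 2 and 3. The groups did not overlap; pyruvate replicate 1 stood highest. The means were 767 ± 19.6 and 862 ± 67.8 CPM (log2 0.17, SE 0.078, adjusted p = 0.373, edgeR). Without pyruvate replicate 1 the value was 0.11 (adjusted p = 0.745). Leaving out control replicate 2 gave the same log2 value, 0.17, but removing the trend of each library with GC content and transcript length left 0.059 (adjusted p = 0.693), and both changes together left 0.0012 (adjusted p = 0.992). Fasn has the highest GC content of the 10 genes, 57.9% in its longest transcript, and its merged exons span 10947 bases. The GC and length trends were removed together, and the part of each in these values was not tested. The ratio of Fasn to Acaca counts was 11.7, 7.19 and 10.8 in control and 11.8, 9.77 and 10.6 in pyruvate replicates, low in control replicate 2 alone (exact permutation p = 0.8).

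The stearoyl-CoA desaturases form a cluster on chromosome 19, with Scd2 (ENSMUSG00000025203, 44293674 to 44306864, plus strand) 87.6 kb from Scd1 (ENSMUSG00000037071, 44394455 to 44407879, minus strand) and Scd4 and Scd3 nearby. Scd2, the form prominent in brain and developing tissues of the mouse, was the more abundant. It stood at 171, 220 and 172 CPM in control replicates 1, 2 and 3 and at 236, 254 and 234 CPM in the pyruvate replicates. Its exons share 61 bases with Mir5114 on the same strand. The groups did not overlap, and control replicate 2 again lay nearest to the pyruvate libraries. The means were 188 ± 28.2 and 241 ± 11.1 CPM (log2 0.36, SE 0.11, adjusted p = 0.201, edgeR). Scd2 rose without control replicate 2 (log2 0.50, adjusted p = 0.00430), and it rose with the GC and length trend removed (0.35, adjusted p = 0.0224; 1.58% of all tested genes rose in that fit). With the replicate number as a block it rose by 0.37 (adjusted p = 0.0477), where 1.01% of all tested genes rose.

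Scd1, the main form in mouse liver, stood at 57.7, 66.4 and 53.01 CPM in control and at 65.8, 69.99 and 72.8 CPM in pyruvate replicates. Control replicate 2 lay above pyruvate replicate 1, so the groups overlapped. The means were 59.04 ± 6.80 and 69.5 ± 3.54 CPM (log2 0.24, SE 0.10, adjusted p = 0.342, edgeR). Without control replicate 2 the groups separated and Scd1 rose by 0.33 (adjusted p = 0.0444). Scd3, a skin-type paralog and no member of the set of 10, was scarce, at 3.17, 3.22 and 3.25 CPM in control and 8.17, 5.28 and 4.32 CPM in pyruvate replicates. Its groups did not overlap, the change was 0.88 (SE 0.24) and it did not pass (adjusted p = 0.173, edgeR). Scd4 stood at 0.64 and 0.83 CPM. Of stretches of 50 bases, 4.56% of Scd1, 3.97% of Scd2 and 6.57% of Scd3 transcripts are shared with other genes, mostly each other. Scd2 exceeded Scd1 by 2.96, 3.31 and 3.24 times in control counts and by 3.59, 3.63 and 3.21 times in pyruvate counts. These ranges overlapped, and the mean log2 ratio differed by 0.13 (exact permutation p = 0.3).

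Fads2 (ENSMUSG00000024665, chromosome 19, 10062765 to 10101746, minus strand), the delta-6 desaturase that starts the making of long polyunsaturated fatty acids, had the lowest p of the 10 genes. It stood at 157, 142 and 156 CPM in control and at 229, 178 and 184 CPM in pyruvate replicates 1, 2 and 3. No pyruvate library reached down to a control, and pyruvate replicate 1 stood highest. The means were 151 ± 7.99 and 197 ± 27.5 CPM (log2 0.38, SE 0.11, adjusted p = 0.185, edgeR). Without pyruvate replicate 1 the value was 0.26 (adjusted p = 0.417), and without control replicate 2 it was 0.34 (adjusted p = 0.0890). With the GC and length trend removed Fads2 rose by 0.31 (adjusted p = 0.0488).

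Fads1 (ENSMUSG00000010663, chromosome 19, 10182888 to 10196877, plus strand), the delta-5 desaturase, starts 81.1 kb from the start of Fads2, on the other strand. Its level was 115, 113 and 121 CPM in control and 116, 119 and 124 CPM in pyruvate replicates, with overlapping groups (log2 0.042, SE 0.073, adjusted p = 0.824, edgeR). It lay at -0.013 with the trend removed. The ratio of Fads1 to Fads2 counts was 0.733, 0.791 and 0.778 in control replicates and 0.506, 0.668 and 0.672 in pyruvate replicates. It was lower in each pyruvate library than in any control, and of the 5 ratios tested it was the 1 whose groups did not overlap. The mean log2 ratio was -0.38 ± 0.058 in control and -0.71 ± 0.23 in pyruvate medium, a difference of -0.33. The exact permutation p was 0.1, the smallest that 3 against 3 libraries allows, and 0.5 after adjustment over the 5 ratios, so this comparison could not reach 0.05. Fads3, which lies 2.65 kb from Fads2, stood lower in pyruvate medium without overlap, at 8.81 ± 0.69 and 7.69 ± 0.65 CPM (log2 -0.20, adjusted p = 0.508, edgeR).

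**Figure D2:**
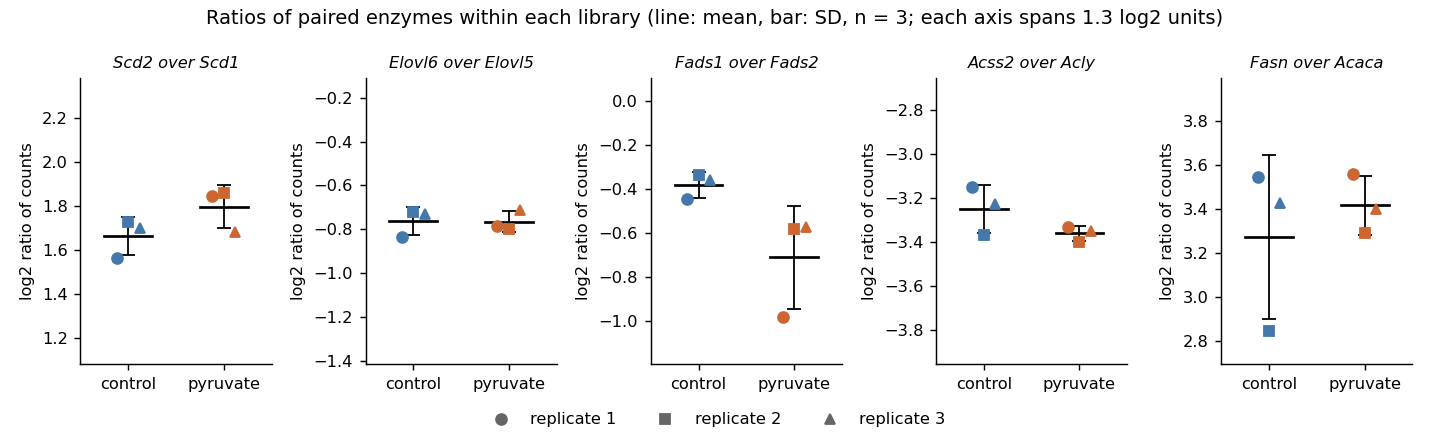
Log2 ratio of the counts of paired enzymes within each library, with mean and SD over 3 libraries per group; the axes have different centres and the same span. Fads1 over Fads2 is lower in all 3 pyruvate libraries, from -0.98 to -0.57 against -0.45 to -0.34 in control, while the groups overlap in the other 4 ratios.

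The elongases had lower mean levels in pyruvate medium. Elovl5 (ENSMUSG00000032349, chromosome 9, 77917364 to 77984519, plus strand) lengthens polyunsaturated chains and stood at 170.1, 204 and 163 CPM in control and 146, 172 and 163 CPM in pyruvate replicates. Elovl6 (ENSMUSG00000041220, chromosome 3, 129532355 to 129638495, plus strand) lengthens palmitate to stearate and stood at 95.5, 124 and 98.3 CPM in control and 84.8, 99.04 and 99.6 CPM in pyruvate replicates. In both, control replicate 2 was the highest library and pyruvate replicate 1 the lowest, and the groups overlapped. Their log2 fold changes were -0.16 (SE 0.11, adjusted p = 0.533, edgeR) and -0.17 (SE 0.12, adjusted p = 0.566). Without control replicate 2 they were -0.053 and -0.036, and without pyruvate replicate 1 they were -0.088 and -0.087. The ratio of Elovl6 to Elovl5 counts ran from 0.561 to 0.608 in control and from 0.575 to 0.611 in pyruvate libraries. Exons of the model Gm35986 overlap 34 bases of Elovl6 on the opposite strand.

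**Figure D3:**
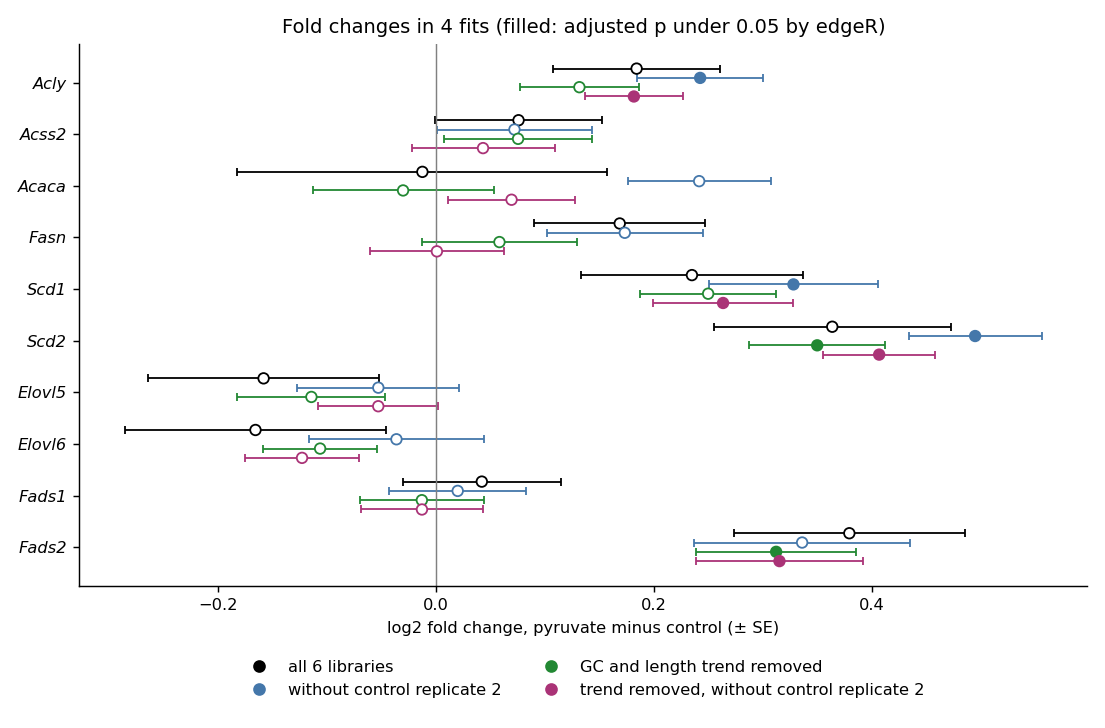
Log2 fold change of each gene, pyruvate minus control, with its SE in 4 edgeR fits: all 6 libraries (black), without control replicate 2 (blue), GC and length trend removed (green) and both (purple). Filled points passed the test over all genes: none with all libraries, Acly, Scd1 and Scd2 without control replicate 2, Scd2 and Fads2 with the trend removed, and Acly, Scd1, Scd2 and Fads2 with both.

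Control replicate 2 differed from the other controls by amounts that varied with GC content over all tested genes, and the 10 genes are set beside that. Compared with the mean of control replicates 1 and 3, this library was higher by 0.32 (log2 CPM, median) among the 3727 tested genes with the lowest GC content and differed by -0.21 among the 3727 with the highest. The elongases, with 44.8% GC in Elovl5 and 44.01% in Elovl6, stood 0.30 and 0.36 higher in it. Fads2, at 54.4% GC, differed by -0.13, Fads1, at 52.2%, by -0.066 and Acly, at 52.1%, by 0.17. The median for genes of 49.97% to 54.7% GC was -0.080. Fasn, at 57.9%, differed by 0.015. Acaca, at 49.1% GC, stood 0.65 higher, Scd2, at 49.5%, stood 0.36 higher and Scd1, at 47.1%, stood 0.26 higher. Acss2, at 47.8%, differed by -0.011. The median for genes of 45.2% to 49.97% GC was 0.092. The pyruvate libraries differed from control replicates 1 and 3 by medians of 0.0025 to 0.015 over the 4 such groups of genes. The part of base composition in the single genes' values was not tested; the fit that removed GC and length trends removed both together, and in it Fads2 and Scd2 passed and Fasn stood at 0.059. With the trend removed and control replicate 2 left out as well, 4 of the 10 rose, against 3.45% of all tested genes: Acly (0.18, adjusted p = 0.0269), Scd1 (0.26, adjusted p = 0.0249), Scd2 (0.41, adjusted p = 0.00110) and Fads2 (0.32, adjusted p = 0.0307).

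**Figure D4:**
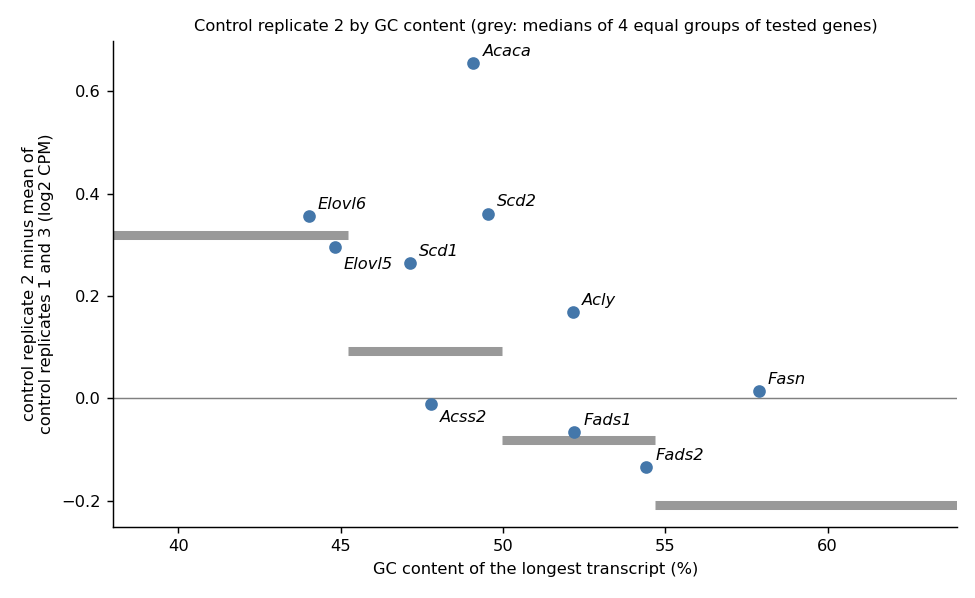
Each point is 1 of the 10 genes, placed by the GC content of its longest transcript (percent) and by how far control replicate 2 lay from the mean of control replicates 1 and 3 (log2 CPM); grey bars are medians over 4 equal groups of tested genes. The bars step down from 0.32 to -0.21, and Acaca, at 0.65, stands farthest above its group.

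Levels of different genes were compared per length, as CPM divided by the length of the merged exons in kilobases and scaled to the same sum in every library. On that scale Acly was highest, at 488 ± 47.8 in control and 565 ± 9.45 in pyruvate medium, followed by Fasn at 263 ± 10.1 and 302 ± 19.2. In control the order went on with Elovl5 (192 ± 29.01) and Fads2 (173 ± 4.56), whose ranges overlapped, then Scd2 (129 ± 23.2), Fads1 (90.8 ± 2.89), Elovl6 (62.2 ± 11.1), Scd1 (45.5 ± 6.42), Acss2 (26.6 ± 0.67) and Acaca (17.99 ± 5.56). In pyruvate medium Fads2 (229 ± 28.0) came before Elovl5 (175 ± 17.0). The ranges of Elovl5 and Scd2, and of Elovl6 and Scd1, then overlapped. Merged exons include rarely used ones, and those of Acaca and Acss2 span 17074 and 10163 bases, so the levels per length of both may be understated.

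Promoter sequences, 250 bases before to 50 after the gene start annotated by RefSeq (GRCm38.p6), were held for 7 of the 10 genes. For some genes, among them Fads2 and Acss2, that start differs from the GENCODE start given above. The Fads2 window lies almost wholly inside the GENCODE gene, which starts at 10101746 on the minus strand. Bases upstream of that start were therefore hardly searched. They are shown for the 3 genes among these whose groups did not overlap, and for Elovl5, which lay below 0. Capitals mark matches on either strand to the letters CCAAT (bound by NF-Y), GGGCGG (a GC box, bound by Sp1) and CACGTG (an E-box, bound by USF and ChREBP-type factors). The sterol element letters TCACNCCAC were also searched.
Fads2, chr19:10101454-10101753, minus strand: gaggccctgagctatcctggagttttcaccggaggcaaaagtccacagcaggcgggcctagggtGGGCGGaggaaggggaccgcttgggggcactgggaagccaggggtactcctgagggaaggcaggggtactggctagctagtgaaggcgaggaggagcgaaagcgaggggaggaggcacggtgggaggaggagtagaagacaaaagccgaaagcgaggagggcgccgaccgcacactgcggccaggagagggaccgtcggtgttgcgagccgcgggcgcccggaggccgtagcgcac
Acly, chr11:100527951-100528250, minus strand: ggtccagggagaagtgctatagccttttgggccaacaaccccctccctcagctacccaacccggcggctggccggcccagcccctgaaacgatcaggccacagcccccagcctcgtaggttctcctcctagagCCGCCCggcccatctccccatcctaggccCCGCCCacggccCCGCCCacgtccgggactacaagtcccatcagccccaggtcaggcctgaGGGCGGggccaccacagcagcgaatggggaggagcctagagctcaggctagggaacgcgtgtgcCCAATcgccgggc
Fasn, chr11:120824498-120824797, minus strand: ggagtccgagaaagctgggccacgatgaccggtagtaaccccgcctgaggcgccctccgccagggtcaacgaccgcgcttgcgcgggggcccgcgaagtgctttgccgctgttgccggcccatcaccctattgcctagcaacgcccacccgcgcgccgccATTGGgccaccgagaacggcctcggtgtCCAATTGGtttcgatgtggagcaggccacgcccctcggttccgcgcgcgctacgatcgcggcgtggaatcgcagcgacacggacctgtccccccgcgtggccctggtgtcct
Elovl5, chr9:77917115-77917414, plus strand: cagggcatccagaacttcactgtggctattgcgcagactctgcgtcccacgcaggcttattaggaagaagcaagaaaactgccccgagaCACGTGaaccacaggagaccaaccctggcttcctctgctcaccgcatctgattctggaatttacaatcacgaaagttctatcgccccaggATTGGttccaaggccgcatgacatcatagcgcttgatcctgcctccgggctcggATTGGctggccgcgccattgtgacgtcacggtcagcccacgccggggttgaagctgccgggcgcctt
The Fads2 window held 1 GC box and no CCAAT, the Acly window 4 GC boxes and 1 CCAAT, and the Fasn window 3 CCAAT matches, 2 of them overlapping as a palindrome on opposite strands. The Elovl5 window held 2 CCAAT matches and 1 E-box. Of the other windows, Acss2 held 5 GC boxes and 1 CCAAT, and Elovl6 and Acaca held none of these letters; the Acaca window lies at an internal start. The sterol element was found in 0 of the 7 windows. Over all 32851 RefSeq promoters of this length, 37.4% held CCAAT, 35.7% the GC box, 7.15% the E-box and 1.24% the sterol element.

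Other enzymes of fatty acid synthesis, elongation and desaturation were described from a list of paralogs, partners and mitochondrial counterparts. Of 25 listed genes 23 were tested, 9 lay above 0, the median was -0.047, and 0 passed in either direction. Their groups did not overlap for 3 genes that stood higher and 6 that stood lower, against 11.9% and 10.6% of all tested genes. Cyb5a, the cytochrome b5 that passes electrons to desaturases, stood at 11.9 ± 1.55 and 15.3 ± 0.85 CPM (log2 0.37, adjusted p = 0.233, edgeR). Fads6, a desaturase-like gene, stood at 5.51 ± 1.53 and 3.68 ± 0.46 CPM (log2 -0.59, adjusted p = 0.271).

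In the list of citrate export and NADPH supply, 7 of 10 tested genes lay above 0, with a median of 0.084, and 0 passed. Idh1, the cytosolic isocitrate dehydrogenase that makes NADPH, stood at 41.5, 49.4 and 40.9 CPM in control and at 70.4, 66.1 and 57.1 CPM in pyruvate replicates (log2 0.55, SE 0.11, adjusted p = 0.123, edgeR). Its groups did not overlap, and it rose without control replicate 2 (0.65, adjusted p = 0.00913) and with the trend removed (0.62, adjusted p = 0.0157). Me1, the malic enzyme that makes NADPH and pyruvate from malate, stood lower, at 36.99 ± 0.99 and 30.3 ± 2.12 CPM (log2 -0.29, adjusted p = 0.213), also without overlap. Slc25a1, the mitochondrial citrate carrier, stood at 71.3 ± 10.1 and 82.7 ± 5.85 CPM (log2 0.21, adjusted p = 0.441) with overlapping groups. Acss1, the mitochondrial acetyl-CoA synthetase, stood at 28.9 ± 2.17 and 34.3 ± 1.49 CPM (log2 0.24, adjusted p = 0.287). Exons of Me1 and Acss1 overlap opposite-strand genes by 30 and 113 bases.

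Among 20 tested genes of lipogenic transcription control, 13 lay above 0 with a median of 0.043. The groups did not overlap for 6 genes that stood higher and 0 that stood lower, against 11.9% and 10.6% of all tested genes, and 0 passed. Insig1, an SREBP target whose product holds SREBP in the endoplasmic reticulum, stood at 198, 233 and 198 CPM in control and at 304, 319 and 288 CPM in pyruvate replicates (log2 0.53, SE 0.088, adjusted p = 0.0840, edgeR). Mid1ip1, whose product promotes polymerisation and activity of acetyl-CoA carboxylase, stood at 5.85 ± 0.28 and 9.54 ± 0.92 CPM (log2 0.71, adjusted p = 0.0937). Mlxipl, which encodes ChREBP, stood at 54.6 ± 2.76 and 74.5 ± 8.39 CPM (log2 0.45, adjusted p = 0.134). Exons of Mid1ip1 and Mlxipl overlap opposite-strand models by 543 and 235 bases. Srebf2, which encodes the sterol-type SREBP, stood at 511 ± 23.6 and 643 ± 35.8 CPM (log2 0.33, adjusted p = 0.134), without overlap, whereas Srebf1, which encodes the lipogenic SREBP, stood at 190.2 ± 14.5 and 199 ± 8.15 CPM with overlap (log2 0.068, adjusted p = 0.738). Insig1, Mid1ip1, Mlxipl and Srebf2 rose without control replicate 2 (adjusted p = 0.00180, 0.0289, 0.0360 and 0.0326) and with the trend removed (0.00950, 0.0248, 0.0365 and 0.0250). Exons of Srebf1 overlap Mir6922 by 66 bases on the same strand and Rai1 by 109 on the other. Whether Srebf2 and Srebf1 differ in their change was not tested.

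**Figure D5:**
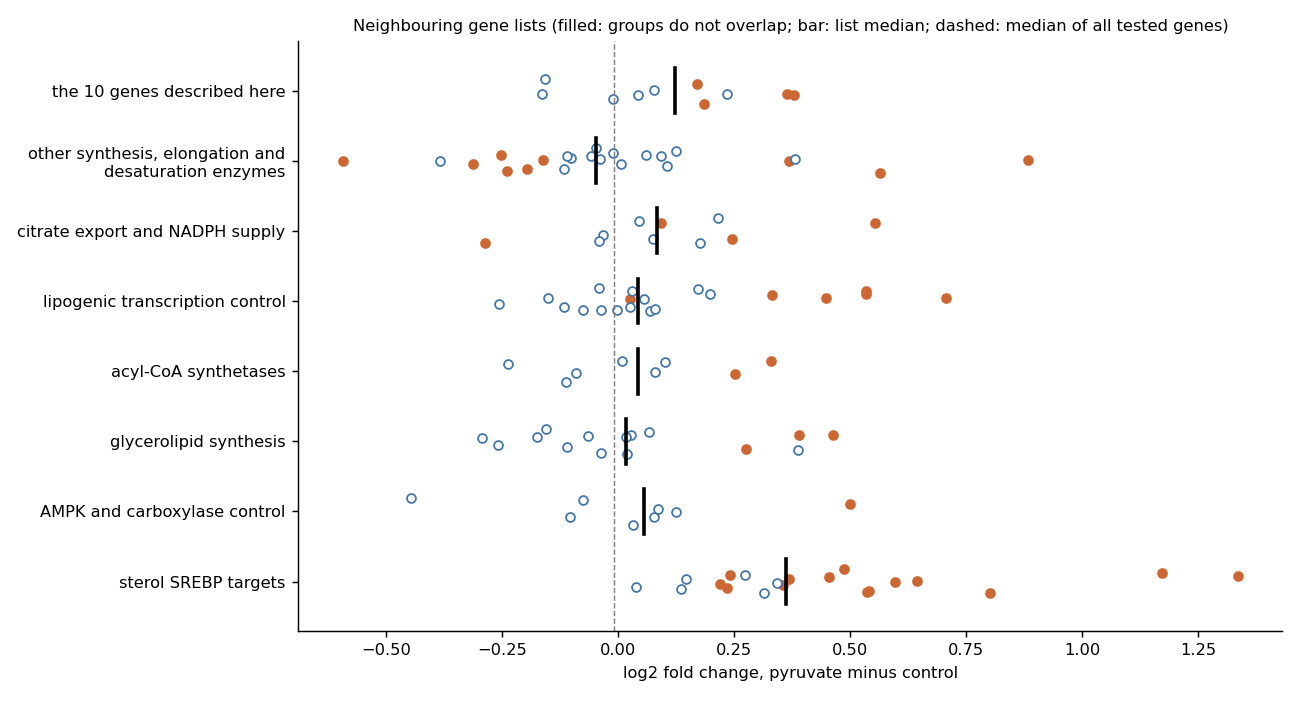
Log2 fold change, pyruvate minus control, of every tested gene in 8 lists; filled points are genes whose groups do not overlap, black bars are list medians and the dashed line is the median of all tested genes, -0.010. The 10 genes described here have a median of 0.12, between the other synthesis, elongation and desaturation enzymes at -0.047 and the sterol SREBP targets at 0.36.

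Glycerolipid synthesis uses the fatty acids made. Of 15 tested genes of glycerolipid synthesis, 8 lay above 0 with a median of 0.018 and 0 passed. Lpin1, a phosphatidate phosphatase, stood at 93.1, 105 and 89.9 CPM in control and 129, 135 and 134 CPM in pyruvate replicates (log2 0.46, SE 0.083, adjusted p = 0.0995, edgeR). Gpat2, a glycerol-phosphate acyltransferase abundant in germ cells, stood at 165 ± 15.3 and 216 ± 16.1 CPM (log2 0.39, adjusted p = 0.153). Both rose without control replicate 2 (adjusted p = 0.00320 and 0.0369) and with the trend removed (adjusted p = 0.00671 and 0.0157). Agpat1, an acyltransferase that makes phosphatidate, stood at 161 ± 17.3 and 143 ± 7.93 CPM with overlap (log2 -0.18, adjusted p = 0.444); it fell with the trend removed (-0.24, adjusted p = 0.0265) and with control replicate 2 also left out (-0.25, adjusted p = 0.00746). Lpin3 stood at 37.3 ± 2.51 and 45.2 ± 2.64 CPM (adjusted p = 0.234).

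Of 8 tested acyl-CoA synthetases 5 lay above 0 (median 0.043, 0 passed). Slc27a1, a fatty acid transport protein, stood at 41.1 ± 2.95 and 51.6 ± 4.91 CPM (adjusted p = 0.212, edgeR), Slc27a2 at 2.38 ± 0.094 and 2.83 ± 0.22 CPM (adjusted p = 0.502) and Acsl4 at 41.5 ± 12.04 and 35.3 ± 4.71 CPM (adjusted p = 0.621). Of 8 genes of AMPK and carboxylase control 5 lay above 0 (median 0.055, 0 passed). Mlycd, the malonyl-CoA decarboxylase that removes the product of the carboxylases, stood at 5.08 ± 0.62 and 7.19 ± 1.44 CPM (adjusted p = 0.258). Prkaa2, a catalytic subunit of AMPK, stood at 6.14 ± 3.16 and 4.53 ± 1.18 CPM (adjusted p = 0.596), and Stk11, which activates AMPK, at 203 ± 24.7 and 221 ± 15.4 CPM (adjusted p = 0.623). Without control replicate 2, Acsl4 and Prkaa2 turned from -0.24 to 0.028 and from -0.45 to 0.075 on the log2 scale. Exons of Slc27a2 and Stk11 overlap opposite-strand genes by 419 and 232 bases.

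In the sterol branch of the SREBP targets, 20 of 20 tested genes lay above 0, with a median of 0.36, and 1, Mvk (mevalonate kinase, log2 1.17, adjusted p = 0.0353, edgeR), rose, against 0.0201% of all tested genes. Without control replicate 2, 12 of the 20 rose, against 3 of the 10 fatty acid genes and 2.33% of all tested genes. Msmo1 and Lss, both of the sterol ring steps, stood at log2 0.64 and 0.54, above all 10 fatty acid genes, and Hmgcs1, which makes the precursor of mevalonate, at 0.32 (adjusted p = 0.327). Exons of Lss and Hmgcs1 overlap opposite-strand genes by 381 and 557 bases. This list was known from earlier results to lie above 0, and the difference between the branches was not tested.

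For the members of lowest p, genes of similar profile over the 6 libraries were sought among 10851 others with a mean of at least 5 CPM, by the root mean square difference of centred log2 CPM. Nearest to Fads2 were Ccdc40 (0.017), Tbc1d9b (0.022) and Rhov (0.036). Nearest to Scd2 were Amigo2 (0.032), Tns3 (0.0405) and Lrp8 (0.041), a receptor of the LDL receptor family. None of these neighbours passed (adjusted p = 0.200 to 0.333, edgeR). How small a difference arises by chance among so many genes over 6 libraries was not tested, nor was shared control.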

How the data were processed

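Sequencing libraries of germline stem cells, 3 per medium, were prepared with a kit that keeps strand, per the labels' protocols. Raw counts per gene, with no normalization, were deposited. Per the submitters' processing notes, the tools were HTSeq 2.0.5, STAR 2.7.11a, cutadapt 4.6 and bcl2fastq 2.20, and the build was mm10. Which annotation release and strand setting served for counting is not given in the sources used here, and opposite-strand overlaps therefore make counts uncertain. The table's other 3 columns could be matched to no sample and were left out. Rows without a gene identifier numbered 0.

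Counts were filtered with filterByExpr (minimum count 10), scaled by TMM and tested in edgeR 4.0.16 (R 4.3.3) by the robust quasi-likelihood method without covariates, adjusted after Benjamini and Hochberg over all tested genes (threshold 0.05). SEs are the fold change over the square root of F. Levels are TMM-scaled CPM, but summed marker levels and the floor are CPM by library totals. The log2 CPM used a prior count of 2. Ratios of counts were compared by two-sided exact permutation tests. Annotation was GENCODE M21 (GRCm38). The steps were tested on simulated counts. The floor of 3 counts was 0.114 to 0.143 CPM, for counting error only. Counts of libraries within a group differed by more than sampling noise (chi-square per gene 3.07 to 46.8). Whether each library had a culture of its own is not in the labels. The p-values therefore cover the variation among these libraries only, and that may be technical.

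The genes, lists and tests were chosen with earlier results of these data known. Named genes were the 10 enzymes, in each list those past the threshold and the 3 of lowest p, 10 fixed by name, and the 3 nearest profiles of the members of lowest p. Scd4, Fads3, Gm5182, Agpat1, Col1a1, Pparg and Retn were named outside this rule, after values were seen. Alternatives were other scalings and filters, DESeq2 1.42.0, limma 3.58.1 (voom), the replicate number as a block, removal of GC and length trends (splines with 5 degrees of freedom) and leaving out each library. Combinations with control replicate 2 left out were added after seeing the data.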

Additional observations from a re-analysis of the deposited data

How the results depend on the processing

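With all libraries, the count of all genes past the threshold was 8, and it was 14 with library totals, 15 with the upper quartile, 83 with no filter, 288 with DESeq2, 589 with trends removed, and 0 to 625 on leaving out single libraries (625 without control replicate 2, 0 to 3 without any other). Without control replicate 2 it was 806 with DESeq2 (434 higher), 481 with limma-voom (242 higher) and 1490 with trends removed (519 higher). The limma-voom fit and the fit with trends removed each tested 15042 genes. Of the 10 enzymes, 0 passed with all libraries, 2 with trends removed, 0 to 3 on leaving out single libraries, and without control replicate 2, 4 with DESeq2, 2 with limma-voom and 4 with trends removed. Each enzyme that passed stood higher in pyruvate medium. The median of the 10 enzymes, 0.12, ran from 0.090 to 0.21 on leaving out single libraries. Without control replicate 2 it was 0.20 with DESeq2, 0.21 with limma-voom and 0.057 with trends removed. The cause was not tested. Acaca, at -0.012, lay above 0 with library totals (0.024), the upper quartile (0.0097), limma-voom (0.017), the replicate block (0.020), without pyruvate replicate 1 (0.0040) and without control replicate 2 (0.24 in edgeR, 0.23 in DESeq2, 0.24 in limma-voom, 0.070 with trends removed); over single libraries left out it ran from -0.13 to 0.24. Fads1, at 0.042, turned to -0.013 with trends removed, with or without the replicate block, and to -0.012 when control replicate 2 was also left out. The other 8 enzymes kept their direction in all 19 alternatives. On leaving out single libraries the difference in log2 ratio ran from -0.041 to 0.016 for Elovl6 over Elovl5 (above 0 at 0.016 and 0.011 without control replicates 2 and 3, and at 0.0049 and 0.013 without pyruvate replicates 1 and 2), from -0.071 to 0.28 for Fasn over Acaca (-0.071 without control replicate 2), from -0.40 to -0.19 for Fads1 over Fads2, from -0.17 to -0.062 for Acss2 over Acly and from 0.083 to 0.19 for Scd2 over Scd1. With 2 libraries in a group the smallest exact p is 0.1.

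Deviations from the group means correlated at 0.31, 0.31 and -0.073 between same-numbered libraries, and at -0.39 to 0.21 between libraries of different number. With 3 libraries per group these values cannot decide whether the replicate numbers pair the samples. With the replicate number as a block 265 genes (151 of them higher) and 1 of the 10 enzymes passed (Scd2, log2 0.37, adjusted p = 0.0477, edgeR). With trends removed as well it was 1439 genes, 593 of them higher, out of 14912 tested, and 3 enzymes, all higher. Sign-flip tests of the 5 paired ratios cannot go below 0.25.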
